A study of Mus musculus with 5 samples.

Results

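Regions listed near the transcription start sites of olfactory receptor genes were examined in neuronal nuclei of the mouse striatum. They were taken as every line of the 4 deposited region lists whose gene symbol starts with Olfr and a number, which gave 1096 of 56894 lines, 857 gene symbols and 903 distinct regions out of 38941. Of the 857 symbols, 854 were listed for H3K27me3, 92 for H3K4me3, 2 for RNA polymerase II (Pol II) and 1 for H3K27ac. The nuclei came from the striata of C57BL/6 mice aged 8 weeks and were sorted on NeuN, a nuclear antigen of neurons in general, and the labels call them medium spiny neurons. No transgene, mutation or treatment is named. There was 1 library for each of the 4 antibodies and 1 input library, which entered only through the authors' lists made over input. With no replicates there is no test between samples, and every interval below is an exact (Clopper-Pearson) 95% interval of a share that covers counting error only.

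Olfactory receptors are G protein-coupled receptors of the nasal epithelium and form the largest gene family of the mouse. Their genes lie in clusters of close copies on many chromosomes. Each olfactory sensory neuron expresses a single receptor allele and keeps the others silent, in that cell type largely within heterochromatin marked by H3K9me3, for which no antibody was used here. Class I receptors, related to those of fish, lie together on chromosome 7, and class II receptors make up the rest. H3K27me3 is the mark of Polycomb repressive complex 2 and is best known at CpG-rich promoters of developmental genes. H3K4me3 marks promoters, H3K27ac active promoters and enhancers, and Pol II transcribes the genes.

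The sequence at the start of receptor genes differs from that of most promoters. Windows of 300 bases, 250 before to 50 after each annotated start, were available from RefSeq (GRCm38.p6) for 943 of 1108 protein-coding receptor genes (85.1%). The receptor windows had a median of 1 CpG (quartiles 0 to 2) and 35.0% G and C, against 15 CpGs (5 to 25) and 57.7% in windows of other coding genes. Windows with 10 or more CpGs made up 0.211% of receptor windows and 61.2% of the others. Of 1107 placed receptor gene models, 800 were classed as of coding length only (a median of 942 bases). The class was set by length alone, below 1100 bases and a whole number of codons, and coding positions were not read. Such models were taken to hold no untranslated sequence. Their annotated start would then be the start codon, and the window may lie away from the true promoter. H3K27me3 was listed at 597 of these 800 genes (74.6%) and at 237 of 307 with longer models (77.2%). The 8 windows that follow are a selection. Olfr94 and Olfr96 lie in the highest-scoring H3K27me3 region of receptors. Olfr94, Olfr58 and Olfr986 have an H3K4me3 score above 3, and Olfr90 and Olfr867 are the receptors with Pol II. Olfr63, Olfr1323 and Olfr95, which also score high, are not shown. Olfr212 was chosen afterwards because it has the most CpGs of any receptor, and Zfp202 is a zinc finger gene that shares regions with Olfr986. Each window is read 5′ to 3′ on the gene's strand. CpGs and matches to 2 motifs (TCCC, any 2 bases and GGGA, or TAATTA) are in capitals.
Olfr94: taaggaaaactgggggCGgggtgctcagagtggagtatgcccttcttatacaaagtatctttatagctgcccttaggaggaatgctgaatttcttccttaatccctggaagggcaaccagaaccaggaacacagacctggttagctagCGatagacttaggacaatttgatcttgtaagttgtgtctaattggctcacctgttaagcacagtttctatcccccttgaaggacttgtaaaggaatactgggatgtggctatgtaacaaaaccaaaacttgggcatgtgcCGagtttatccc
Olfr96: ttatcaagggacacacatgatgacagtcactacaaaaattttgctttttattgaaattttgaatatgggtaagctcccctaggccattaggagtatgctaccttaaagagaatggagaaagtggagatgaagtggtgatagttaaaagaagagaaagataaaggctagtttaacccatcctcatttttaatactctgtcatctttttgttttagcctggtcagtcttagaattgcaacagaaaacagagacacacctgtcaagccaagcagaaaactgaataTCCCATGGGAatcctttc
Olfr58: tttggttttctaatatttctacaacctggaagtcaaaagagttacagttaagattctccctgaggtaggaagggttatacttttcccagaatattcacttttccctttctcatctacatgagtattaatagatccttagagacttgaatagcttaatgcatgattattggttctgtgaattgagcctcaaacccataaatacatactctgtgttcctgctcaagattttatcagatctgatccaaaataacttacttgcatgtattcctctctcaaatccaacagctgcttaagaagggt
Olfr986: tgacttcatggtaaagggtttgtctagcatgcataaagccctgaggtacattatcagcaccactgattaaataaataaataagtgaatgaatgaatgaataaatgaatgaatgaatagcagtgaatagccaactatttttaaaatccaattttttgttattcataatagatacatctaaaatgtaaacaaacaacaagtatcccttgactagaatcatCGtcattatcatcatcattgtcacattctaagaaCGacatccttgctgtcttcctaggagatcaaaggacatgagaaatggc
Olfr90: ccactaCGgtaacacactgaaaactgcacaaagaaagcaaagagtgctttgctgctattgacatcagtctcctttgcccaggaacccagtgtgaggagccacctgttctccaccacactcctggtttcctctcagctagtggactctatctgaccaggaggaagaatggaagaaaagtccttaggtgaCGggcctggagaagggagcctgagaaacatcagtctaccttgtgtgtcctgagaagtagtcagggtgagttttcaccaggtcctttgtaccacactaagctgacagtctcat
Olfr867: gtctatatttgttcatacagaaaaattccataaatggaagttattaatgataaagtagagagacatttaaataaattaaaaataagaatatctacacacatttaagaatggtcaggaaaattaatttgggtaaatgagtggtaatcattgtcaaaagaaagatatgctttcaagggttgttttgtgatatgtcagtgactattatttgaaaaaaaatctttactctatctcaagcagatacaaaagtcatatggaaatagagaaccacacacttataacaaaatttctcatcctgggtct
Olfr212: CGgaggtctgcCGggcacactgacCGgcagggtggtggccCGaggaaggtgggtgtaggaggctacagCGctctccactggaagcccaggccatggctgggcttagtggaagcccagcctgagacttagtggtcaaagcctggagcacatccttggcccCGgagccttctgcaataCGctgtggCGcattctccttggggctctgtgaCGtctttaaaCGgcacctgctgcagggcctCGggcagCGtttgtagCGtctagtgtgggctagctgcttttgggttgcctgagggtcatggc
Zfp202: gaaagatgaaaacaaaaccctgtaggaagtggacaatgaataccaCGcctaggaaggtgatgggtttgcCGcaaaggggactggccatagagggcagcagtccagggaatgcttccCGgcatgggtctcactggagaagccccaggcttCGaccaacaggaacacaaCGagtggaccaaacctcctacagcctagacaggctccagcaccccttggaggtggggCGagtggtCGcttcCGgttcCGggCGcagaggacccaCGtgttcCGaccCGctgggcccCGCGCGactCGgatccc

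In GRCm38.p6 the Olfr94 window is chr17:37197917-37198216 on the minus strand, with 3 CpGs. That of Olfr96 is chr17:37224841-37225140 on the plus strand, and it holds no CpG. Olfr58 (chr9:19780033-19780332, plus) and Olfr867 (chr9:20055412-20055711, minus, a model of coding length) hold none either, and Olfr986 (chr9:40186829-40187128, plus) and Olfr90 (chr17:37086187-37086486, minus) hold 2 each. Olfr212 (chr6:116506266-116506565, plus) has 13 CpGs, and Zfp202 (chr9:40192066-40192365, plus) has 17.

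A pair of motifs known from receptor promoters was searched in the windows of all coding genes. Both motifs read the same on either strand. TCCC followed by any 2 bases and GGGA, the site of the Ebf (Olf-1) factors, was found in 5 of 947 receptor windows (0.528%, 0.172 to 1.23%) and in 194 of 19541 other windows (0.993%). The homeodomain motif TAATTA, bound by Lhx2 among others, was found in 176 receptor windows (18.6%, 16.2 to 21.2%) and in 3.77% of the others. Among windows of receptors with H3K27me3 the share with TAATTA was 16.97% (14.3 to 19.9%), and among those without it 23.9% (18.4 to 30.0%). Median CpG counts were 1 in both sets. The intervals of the shares overlap, which does not show that the shares are equal. Of the 947 windows, 668 belong to models of coding length only, whose annotated start was taken to be the start codon. In longer models alone the share with TAATTA was 18.1% (13.2 to 23.8%) with H3K27me3 and 19.0% (10.2 to 30.9%) without it. These are matches of letters, and base composition differs between the sets compared.

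The first question was which antibodies had a region at receptor genes. H3K27me3 was listed at 835 of 1108 coding receptor genes (75.4%, 72.7 to 77.9%), against 8094 of 19923 other coding genes (40.6%, 39.9 to 41.3%) and 42.5% of all coding genes. H3K4me3 was listed at 92 receptor genes (8.30%, 6.75 to 10.1%), against 14285 others (71.7%) and 68.4% of all coding genes. Pol II was listed at 2 receptor genes (0.181%), against 44.0% of the others and 41.7% of all coding genes. H3K27ac was listed at 0 of 1108, which allows a share of up to 0.271% (a limit of 3 counts of the total, in place of an interval), against 54.3% of the others and 51.5% of all. Receptors made up 9.35% of all coding genes with H3K27me3 and 0.640% of those with H3K4me3. No region of any antibody was listed for 270 receptor genes (24.4%), against 12.6% of other coding genes. The lists hold marked genes alone and do not say which transcripts were searched, so a gene without a region is counted here as unmarked, in these shares and in those of the clusters. Genes are not independent, since neighbours share regions, and reads from close copies may have been assigned or dropped in ways not given in the sources used here.

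**Figure D1:**
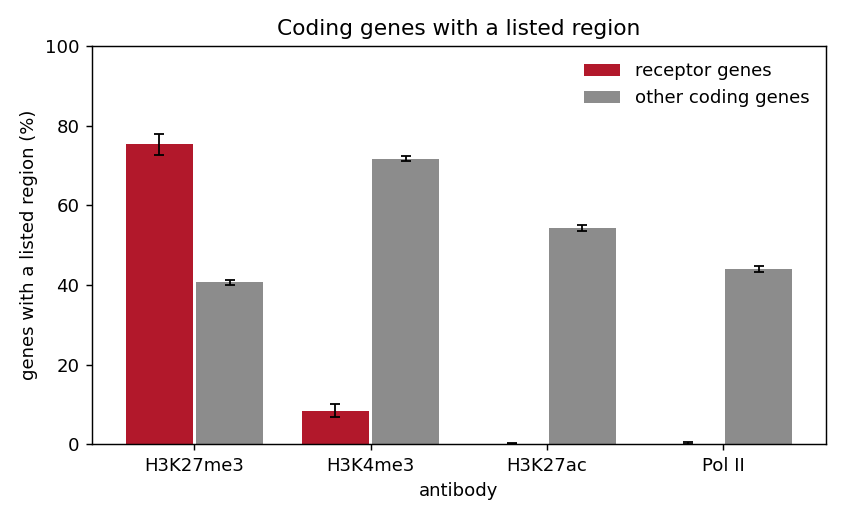
Share of protein-coding genes with a listed region, for each antibody, in receptor genes (red, n = 1108) and other coding genes (grey, n = 19923). Error bars are exact 95% intervals of counting error. Receptor genes stand above the others for H3K27me3 (75.4% against 40.6%) and far below them for the other 3 antibodies.

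H3K27me3 stood alone at most receptor genes. It was the only mark at 745 of 1108 receptors (67.2%), against 3084 other coding genes (15.5%) and 18.2% of all coding genes. Another 89 receptors carried H3K27me3 with H3K4me3 and no other mark (8.03%), against 13.7% of other coding genes and 13.4% of all. H3K4me3 alone was listed at 2 receptors (0.181%), against 2.68% of all coding genes. Pol II alone was listed at 1 receptor (0.0903%), against 0.0808% of all, and H3K27me3 with H3K4me3 and Pol II at 1, against 0.447% of all. The combination that was most frequent in other genes, H3K4me3 with H3K27ac and Pol II, was found at 7317 of them (36.7%) and at no receptor. Beside the coding genes, 13 receptor entries that the gene table does not class as coding were listed, and 5 listed symbols matched no entry of the table.

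The H3K27me3 regions of receptor genes were low in the authors' score, which is given over input on an unstated scale and was compared only within a list. The 798 receptor regions had a median score of 2.71 (quartiles 2.30 to 3.22), and the 7421 other regions 3.35 (2.58 to 4.88). No score below 2 is listed. A score of 5 or more was reached by 9 receptor regions (1.13%) and by 1763 others (23.8%). Receptors held 137 of the 821 regions with the lowest 10% of scores (16.7%) and 1 of the 822 with the highest 10% (0.122%). The excess over other genes depended on these low scores: with the upper 50% of the list alone, 294 receptors (26.5%, 24.0 to 29.2%) and 24.96% of other coding genes were listed. With a score of at least 3 it was 381 receptors (34.4%, 31.6 to 37.3%) and 27.6% of the others. Set against the 3084 other genes with H3K27me3 as their only mark, the 745 receptors of that kind had a median score of 2.82 against 3.23, and a median width of 11.5 kb against 15.3 kb.

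Receptor regions were also narrower. Their median width was 8.80 kb (quartiles 4.90 to 16.5 kb), against 12.8 kb (6.80 to 28.8 kb) for other H3K27me3 regions. The range was 2.50 to 126 kb in receptor regions and 2.50 to 937 kb in the others. Regions above 20 kb numbered 160 (20.1%) among receptors and made up 35.4% of the others. At widths above 50 kb the median score was 4.12 in 32 receptor regions and 6.65 in 945 others, while at widths up to 5 kb it was 2.21 in both sets. The widest regions had lower scores at receptors than elsewhere, and the narrowest did not. Across regions, a higher score went with a greater width in both sets, with Spearman's rho of 0.83 in receptor regions and 0.78 in other regions, given as a description since both values come from the same library. Together the receptor regions covered 11.5 Mb, or 5.64% of the 205 Mb listed for H3K27me3.

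**Figure D2:**
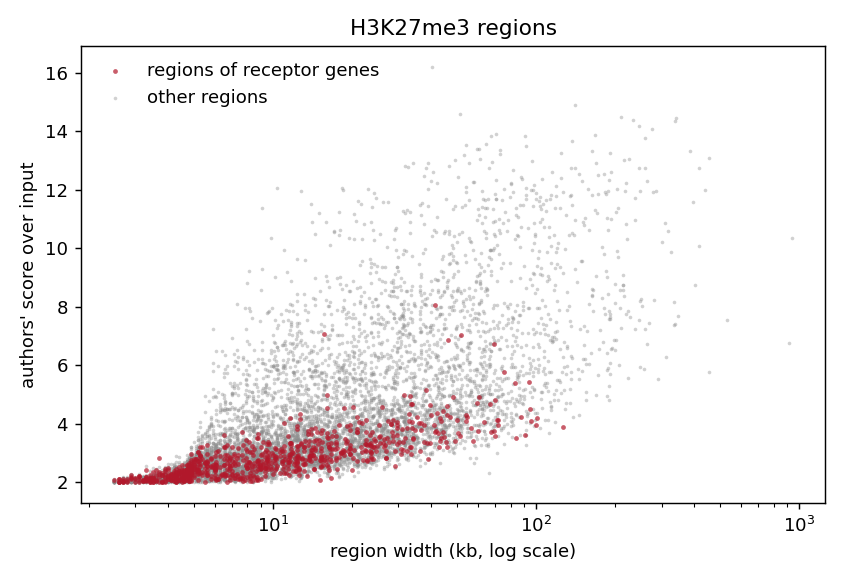
Authors' score over input against region width (log axis) for each H3K27me3 region, with regions of receptor genes in red (n = 798) and all other regions in grey (n = 7421). Red points gather at lower scores than grey ones (a median of 2.71 against 3.35), with 9 of them at a score of 5 or more.

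Most H3K27me3 regions of receptors held a single receptor. Of the 798 regions, 667 were listed for 1 receptor, 100 for 2, 20 for 3, 6 for 4, 4 for 5 and 1 for 6, and 303 of the 854 listed symbols lay in a region with at least 1 other receptor. A total of 734 symbols had 1 region, 117 had 2 and 3 had 3. A symbol without the Olfr name was also listed for 32 regions. These included regions with Ndufa10 and Ndufb7, which encode subunits of respiratory complex I, Tpm4 (a tropomyosin), Epx (eosinophil peroxidase), Lalba (alpha-lactalbumin, a milk protein), Trim68 and Trim21, H2-M2 and H2-M3 (nonclassical major histocompatibility genes) and Cd53 (a leukocyte tetraspanin).

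The highest-scoring region held Olfr94, Olfr95 and Olfr96 together with Ubd, a ubiquitin-like gene of immune cells. It scored 8.07 over 41.3 kb (mm9, chr17:37324001-37365300) and ranked 547 among the 8219 regions of the list. Olfr63 followed with 7.08 over 15.6 kb (chr17:33397901-33413500) and Olfr1323 with 7.05 over 52.0 kb (chrX:47356501-47408500). These are the 3 receptor regions above a score of 7. Olfr1338, Olfr1339 and Olfr1340 shared a region of 46.1 kb scoring 6.88 (chr4:118390301-118436400). On chromosome 1 a pair of regions held a whole cluster of 8 receptors: Olfr1410 to Olfr1413 with Olfr12 scored 6.73 over 69.5 kb (chr1:94463501-94533000), and Olfr1414 to Olfr1416 with Ndufa10 scored 5.78 over 75.3 kb (chr1:94371301-94446600). The next score was 5.42 at Olfr30, in a region also listed for 1810065E05Rik, 2210415F13Rik, 4930504O13Rik and Gm12253. It was followed by 5.41 at Olfr286, Olfr287 and Olfr288 with the testis histone gene H1fnt, 5.15 at Olfr1394 with Btnl9, and 4.98 at Olfr70 with Olfr71.

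The widest receptor regions were other ones. Olfr357, Olfr358, Olfr360, Olfr361 and Olfr362 shared 126 kb with a score of 3.91 (mm9, chr2:36839601-36965900). Olfr139, Olfr399 and Olfr401 shared 101 kb (score 4.20) and Olfr324, Olfr325, Olfr328, Olfr329-ps and Olfr330 shared 100.2 kb (3.96) with 2210407C18Rik, both on chromosome 11. Regions of 95.4 kb on chromosome 2 (Olfr3 and Olfr350 to Olfr353), 95.2 kb on chromosome 8 (Olfr372 to Olfr374 with Tpm4) and 94.4 kb on chromosome 11 (Olfr30 with the other symbols named above) came next. The 10 widest ended with 91.2 kb at Olfr170 and Olfr171, 87.8 kb at Olfr290, 84.2 kb at Olfr472, Olfr473, Olfr474 and Olfr476, and 83.0 kb at Olfr286 to Olfr288. Of these 10, the regions of Olfr30 and Olfr286 were also among the 10 highest scores.

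Clusters were then compared. Receptor genes were joined into a cluster when at most 5 other coding genes lay between neighbours in the gene table, which gave 58 clusters from 1107 genes on 17 chromosomes. H3K27me3 was listed in 57 of the 58, and the exception was Olfr267, a lone receptor on chromosome 4. Among the 24 clusters of 10 or more genes the share of receptors with H3K27me3 ran from 40.0% to 100%, with a median of 84.5%. All 35 genes were listed in the chromosome 9 cluster from Olfr24 to Olfr18, all 30 in the chromosome 11 cluster from Olfr20 to Olfr412, all 28 in the chromosome 2 cluster from Olfr338 to Olfr368, and all 13 in the chromosome 4 cluster from Olfr62 to Olfr1328. In the cluster of 46 genes on chromosome 17, from Olfr90 to Olfr136, 44 were listed, 42 of them in an unbroken run from Olfr91 to Olfr135.

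The largest cluster was marked at a lower share than most. From Olfr987 to Olfr1274 on chromosome 2, 111 of 222 receptors were listed (50%, 43.2 to 56.8%), with a median score of 2.29 and a median width of 4.80 kb. This was the lowest median score among the 24 clusters, and the highest was 4.16, in the chromosome 11 cluster from Olfr20, where the median width was 54.2 kb. The chromosome 9 cluster from Olfr160 to Olfr986 had 59 of 95 (62.1%), including a run of 9 unlisted genes from Olfr160 to Olfr883. The chromosome 10 cluster from Olfr9 to Olfr827 had 38 of 58 (65.5%), the chromosome 6 cluster from Olfr458 to Olfr47 had 8 of 20 (40.0%), and the chromosome 11 cluster from Olfr1396 to Olfr1380 had 9 of 19 (47.4%). Clusters on the same chromosome could differ: on chromosome 11 the shares were 47.4% in the cluster from Olfr1396 and 100% in that from Olfr20. Whether the share of uniquely alignable sequence differs between clusters was not tested.

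**Figure D3:**
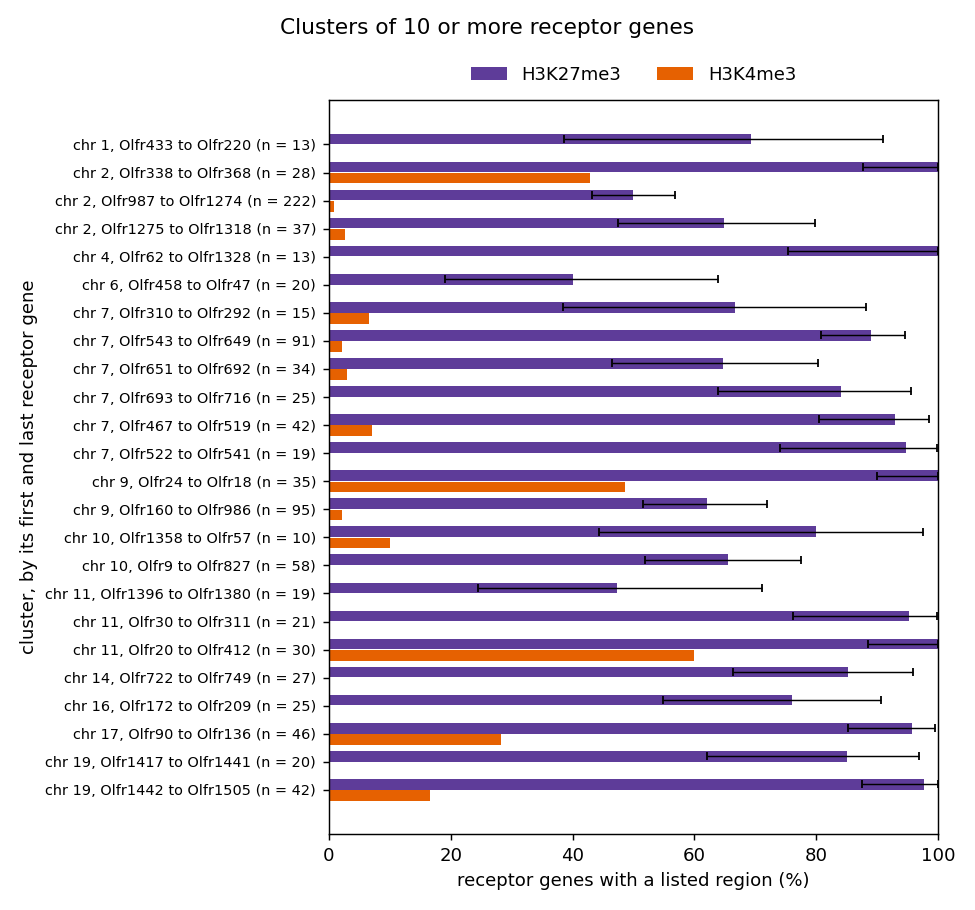
Share of receptor genes with a listed H3K27me3 region (purple, with exact 95% intervals) and H3K4me3 region (orange) in each of the 24 clusters of 10 or more receptor genes, named by chromosome and by the first and last gene. H3K27me3 reaches 100% in 4 clusters and 50% in the largest, and H3K4me3 is high in 4 clusters, up to 60% on chromosome 11.

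By chromosome, H3K27me3 was listed at 202 of 238 receptors of chromosome 7 (84.9%), 163 of 287 of chromosome 2 (56.8%), 94 of 130 of chromosome 9 (72.3%) and 70 of 83 of chromosome 11 (84.3%). Chromosome 19 had 58 of 62 (93.5%) and chromosome 17 had 45 of 50 (90.0%). All receptors were listed on chromosomes 3, 8, 13, 15 and X, which hold 2, 5, 13, 9 and 6 of them. The median score was highest on chromosome 15, with 4.71 and a median width of 59.8 kb. In the positions of the files (mm9), the 798 regions formed 48 groups less than 1 Mb apart. The group with the most receptors spanned 4.96 Mb of chromosome 2 (chr2:85185801-90142200), with 115 symbols in 118 regions that covered 12.8% of the span. The group at chr11:73156401-74187500 held 31 symbols in 14 regions that covered 68.2% of its 1.03 Mb, and that at chr2:36217401-37190000 held 28 in 17 regions covering 75.2%. The groups from Olfr543 to Olfr690 (chr7:109622301-112476600, 103 symbols) and from Olfr693 to Olfr517 through Olfr519 (chr7:113808901-116077000, 59 symbols) covered 36.0% and 40.5% of their spans. On chromosome 9 the group from Olfr884 to Olfr986 (chr9:37836801-39997700, 63 symbols) covered 22.9% and that from Olfr24 to Olfr18 (chr9:18551501-20138100, 35 symbols) 42.8%. The shares were 41.5% from Olfr1417 to Olfr1505 on chromosome 19 (59 symbols), 51.8% from Olfr91 to Olfr136 on chromosome 17 (48), 28.8% from Olfr9 to Olfr827 on chromosome 10 (38) and 20.2% from Olfr722 to Olfr1507 on chromosome 14 (32). The group from Olfr1410 to Olfr1416 with Olfr12 on chromosome 1 held 8 symbols in 2 regions over 89.5% of its span. Regions away from an annotated start are not in these lists.

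Class I and class II receptors, told apart by their MOR family names in the gene table (MOR1 to MOR42 are class I), were both marked. H3K27me3 was listed at 102 of 123 class I genes (82.9%, 75.1 to 89.1%) and at 719 of 962 class II genes (74.7%, 71.9 to 77.5%), with median scores of 2.87 and 2.90. H3K4me3 was listed at 3 class I genes (2.44%, 0.506 to 6.96%) and at 89 class II genes (9.25%, 7.5 to 11.3%). All class I genes lie on chromosome 7, so the classes also differ in location. Of the 92 receptors with H3K4me3, 60 lie in 4 clusters on chromosomes 2, 9, 11 and 17, where no class I gene lies. Outside these clusters H3K4me3 was listed at 32 of 968 receptors (3.31%). Whether the classes differ apart from these clusters was not tested. In clusters of 10 or more, the 3 genes at each end had H3K27me3 in 112 of 144 cases (77.8%, 70.1 to 84.3%) and the genes inside in 615 of 843 (73.0%, 69.8 to 75.9%), with median scores of 3.21 and 2.76. The intervals of the shares at the ends and inside overlap, which does not show that these shares are equal.

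Genes that are no receptors but lie among them carried H3K4me3, H3K27ac and Pol II at higher shares than receptors. Their H3K27me3 share (65.7%) was below that of the receptors (75.4%), with overlapping intervals, which do not test the difference. Of 70 coding genes between receptors of a cluster, 46 had H3K27me3 (65.7%, 53.4 to 76.7%), with H3K4me3 at 26 (37.1%), H3K27ac at 17 (24.3%) and Pol II at 15 (21.4%). Of the 345 genes that flank clusters, up to 3 on each side, 157 had H3K27me3 (45.5%, 40.2 to 50.9%), with H3K4me3 at 222 (64.3%), H3K27ac at 178 (51.6%) and Pol II at 141 (40.9%). The shares for the remaining 19508 coding genes were 40.5%, 72.0%, 54.5% and 44.2%.

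H3K4me3 at receptor genes was weak and lay inside H3K27me3. Of the 102 H3K4me3 regions of receptors, 98 fell in the lowest 10% of that list by score, with a median of 2.20 over all 102, against 7.08 for the 13040 other regions. Their median width was 5.05 kb, against 6.40 kb. H3K27me3 was listed at 90 of the 92 receptors with H3K4me3 (97.8%), against 75.4% of all receptors and 35.0% of other genes with H3K4me3. In the other direction, H3K4me3 was listed at 10.8% of receptors with H3K27me3, against 61.8% of other genes with H3K27me3. Both marks were listed at 24.2% of all coding genes. Other genes and regions were not matched to the receptors by H3K4me3 score. By position, 93 of the 102 regions (91.2%) lay wholly within an H3K27me3 region, against 17.4% of other H3K4me3 regions, and only those of Olfr1080 and Olfr1033 on chromosome 2 touched none. An H3K27ac region and a Pol II region overlapped 1 of the 102, that of Olfr986. With the upper 50% of the list by score, 1 receptor kept H3K4me3, and with a score of at least 3 there were 4.

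The 4 receptors with an H3K4me3 score above 3 were Olfr986 (8.05), Olfr94 (5.82), Olfr95 (3.90) and Olfr58 (3.34). The Olfr986 region (mm9, chr9:39997101-40003000) is 5.90 kb wide and is also listed for Zfp202, as are a Pol II region of 4.40 kb scoring 2.04 and an H3K27ac region of 4.70 kb scoring 2.51 that lie within it but are not listed for Olfr986. An H3K27me3 region of 11.6 kb, listed for both genes, covers 10.2% of it, at its left end. The region at Olfr94 (chr17:37331501-37337000), 5.50 kb wide, is shared with Ubd. At Olfr95 (chr17:37345801-37350900) and Olfr58 (chr9:19580701-19585900) no other gene is listed. The next scores were 2.85 at Olfr161, 2.70 at Olfr347, 2.60 at Olfr1080, 2.60 at Olfr658, 2.59 at Olfr849 and 2.59 at Olfr837, with 2 as the lowest value listed. Olfr212, with the most CpGs, had H3K4me3 over 5.0 kb at a score of 2.27, inside an H3K27me3 region of 49.1 kb.

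**Figure D4:**
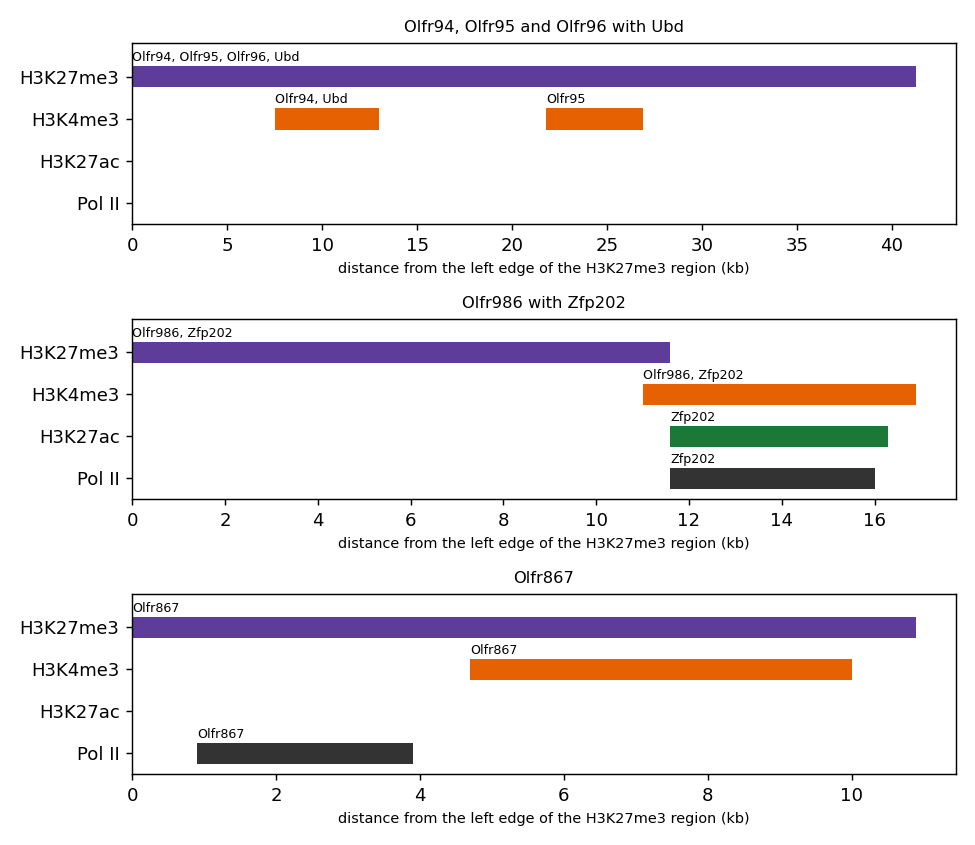
Listed regions of the 4 antibodies at 3 places with receptor genes, as bars to scale by distance in kb from the left edge of the H3K27me3 region, with the listed genes above each bar. At Olfr94 to Olfr96 both H3K4me3 regions lie inside the H3K27me3 region of 41.3 kb, at Olfr986 the H3K4me3, H3K27ac and Pol II regions lie at its right edge, and at Olfr867 Pol II and H3K4me3 lie apart within 10.9 kb.

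Counted by gene, H3K4me3 went with wide H3K27me3, though not in every cluster. Receptors with both marks had a median H3K27me3 width of 32.1 kb (quartiles 14.0 to 54.2 kb, n = 90) and a median score of 3.64. Those with H3K27me3 and no H3K4me3 had 11.5 kb (5.30 to 23.1 kb, n = 745) and 2.82. H3K4me3 was listed at 12 of 354 receptors whose widest H3K27me3 region was up to 10 kb (3.39%, 1.76 to 5.85%), at 9.27% of those above 10 to 20 kb, at 16.7% of those above 20 to 50 kb, and at 28 of 90 above 50 kb (31.1%, 21.8 to 41.7%). In other coding genes the shares were 58.6%, 61.1%, 60.5% and 70.1%. Genes in 1 region share its width, so they are not independent. At median widths of 54.2 and 67.3 kb, 18 of 30 genes from Olfr20 and 12 of 28 from Olfr338 had H3K4me3. At 59.8, 42.95 and 36.3 kb it was 0 of 9 from Olfr288, 0 of 21 from Olfr30 and 0 of 13 from Olfr62. The clusters from Olfr24 and Olfr90, at 13.7 and 13.75 kb, had 17 of 35 and 13 of 46. Both marks were scored over input, and any shared dependence on the input was not tested.

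**Figure D5:**
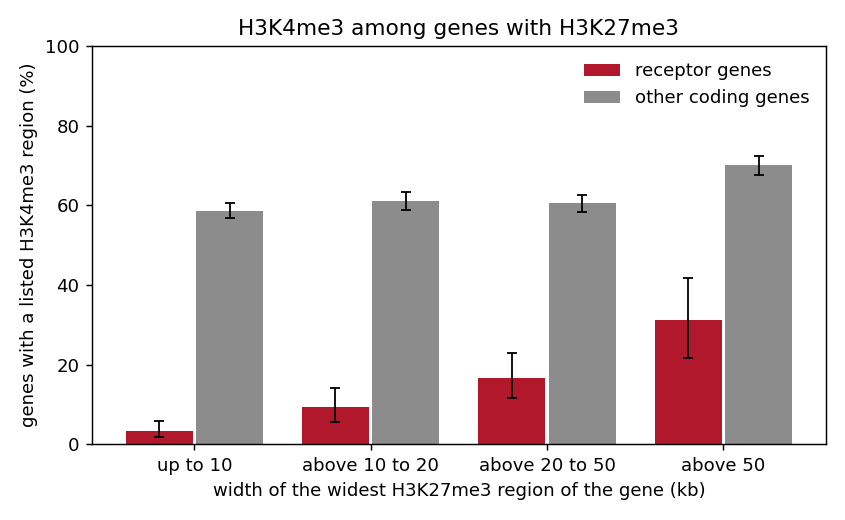
Share of genes with H3K4me3 among genes with H3K27me3, by width of the widest H3K27me3 region, in receptor genes (red) and other coding genes (grey). Error bars are exact 95% intervals. The red bars go up from 3.39% to 31.1% over the 4 width classes, and the grey bars stay between 58.6% and 70.1%. Genes that share a region share its width and are not independent.

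Receptors with H3K4me3 were gathered in a few clusters. The 4 clusters with the most were the chromosome 11 cluster from Olfr20 (18 of 30), the chromosome 9 cluster from Olfr24 (17 of 35), the chromosome 17 cluster from Olfr90 (13 of 46) and the chromosome 2 cluster from Olfr338 (12 of 28). In them 60 of 139 receptors had H3K4me3 (43.2%), against 32 of 968 elsewhere (3.31%). The 4 were picked for this count, so the shares are a description. Every gene of 3 of them had H3K27me3, as did 44 of 46 genes of the chromosome 17 cluster.

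Pol II was listed at Olfr90 and Olfr867. At Olfr90, the first gene of the chromosome 17 cluster, a region of 12.3 kb scored 3.26 (mm9, chr17:37209301-37221600), and no region of another antibody was listed. It ranks 120 of 7799 Pol II regions by width, whose median in other genes is 4.90 kb, and its score lies at percentile 70.1 of that list. Gabbr1 is among the coding genes that flank this cluster. The lists name genes by start sites within 3 kb, and whether this region belongs to a neighbouring gene was not tested. At Olfr867 a Pol II region of 3.00 kb scored 2.05 (chr9:19857201-19860200), at percentile 3.58. It lay within an H3K27me3 region of 10.9 kb scoring 2.72 and did not touch the H3K4me3 region of the gene, 5.30 kb wide with a score of 2.20. H3K27ac was listed for a single receptor symbol, the pseudogene Olfr75-ps1 (chr11:73221201-73224800), over 3.60 kb with a score of 2.22 at percentile 5.12. That region lay inside a 71.4 kb H3K27me3 region (score 4.12) shared with Olfr1, Olfr376 and Olfr378.

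The genes that act with the receptors in olfactory sensory neurons were looked at next. Of 14 genes of olfactory signalling, H3K27me3 was listed at 7, H3K4me3 at 10, H3K27ac at 8 and Pol II at 7. Over all coding genes the shares were 42.5%, 68.4%, 51.5% and 41.7% for the 4 antibodies in that order, so each count was near the background. The members differed among themselves. Omp, the olfactory marker protein gene, had 112 kb of H3K27me3 with a score of 9.05, Rtp1 and Rtp2, which bring receptors to the cell surface, had 347 kb (7.68) and 185 kb (9.22), and Ano2, the olfactory chloride channel gene, had 34.8 kb (4.64). The scores of Omp and Rtp2 were above the highest of any receptor region (8.07), that of Rtp1 was just below it, and Omp and Rtp2 also had H3K4me3 (2.59 and 2.73). Cnga2, the cyclic nucleotide-gated channel gene, had 9.20 kb at 2.24, in the range of the receptors, and Cngb1, which encodes another subunit of that channel, had no region. Gnal, which encodes a G protein alpha subunit of both olfactory and striatal neurons, had H3K4me3 (11.9), H3K27ac (11.3) and Pol II (4.73), beside 4.7 kb of H3K27me3 (2.33). Gnb1, Adcy3, Ric8b, Slc24a4 and Reep1 had the same 3 without H3K27me3. Cnga4, for a further subunit of the channel, did too, through regions shared with Fam160a2, and Gng13 had 14.5 kb of H3K27me3 (2.80) with H3K4me3 and H3K27ac.

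H3K4me3 was listed at all 17 genes known from receptor choice (68.4% of all coding genes), H3K27ac at 11 (51.5%), Pol II at 13 (41.7%) and H3K27me3 at 8 (42.5%, so that this count was near the background). Lhx2, whose protein binds receptor enhancers and promoters, had H3K27me3 over 64.4 kb (10.5) and no H3K27ac or Pol II, and Ebf2 and Ebf4 likewise. Ebf3 (13.1 over 453 kb) and Emx2 (9.40) had H3K27me3 with Pol II and no H3K27ac. Ebf1, a gene of direct-pathway striatal neurons, had all 4. Ldb1, the partner of Lhx2, and Kdm1a (the demethylase Lsd1), Atf5, Ddit3, Eif2ak3, Cbx5, Suv39h1, Ehmt1 and Ehmt2, genes of the stress response and of H3K9 methylation, had H3K4me3, H3K27ac and Pol II without H3K27me3. Lbr, the lamin B receptor gene, had all 4, with H3K27me3 over 191 kb. Setdb1, an H3K9 methyltransferase gene, had H3K4me3 with a 7.80 kb H3K27me3 region and no H3K27ac or Pol II.

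The lists were checked against markers of the cells that the sort could hold. H3K4me3, H3K27ac and Pol II were each listed at all 10 medium spiny neuron markers and all 5 markers of neurons in general. Over all coding genes the shares were 68.4%, 51.5% and 41.7%, in that order. H3K27me3 was also listed at 5 of the 10 medium spiny neuron markers (Drd1, Drd2, Adora2a, Penk and Tac1) and at none of the 5 general ones. With 42.5% of all coding genes listed, 5 of 10 was near the background. Of 7 olfactory sensory neuron markers, H3K27me3 was listed at 6 and H3K4me3 at 3 (Omp, Cnga4 and Gng13). H3K27ac was listed at Cnga4 and Gng13, and Pol II at Cnga4. H3K27ac and Pol II were each listed at 1 of 5 oligodendrocyte markers (Mbp for both) and at none of 5 astrocyte, 5 microglial and 5 endothelial markers. For these 4 cell types H3K27me3 was listed at 5 of 5 astrocyte, 5 of 5 endothelial, 3 of 5 microglial and 2 of 5 oligodendrocyte markers, where 42.5% of all coding genes had it. H3K4me3 was listed at 3 astrocyte, 3 endothelial, 1 microglial and 2 oligodendrocyte markers of 5 each, against 68.4% of all coding genes. Mbp had H3K4me3 (9.02) without H3K27me3. The part of other cells in the receptor regions was not tested.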

How the data were processed

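Chromatin immunoprecipitation libraries, 1 for each of 4 antibodies, and 1 input library were grouped by the antibody in the labels. The aligner Bowtie (0.12.7), MACS (1.4) and the build mm9 are named without a role per the submitters' processing notes. The deposited lists give regions within 3 kb of a transcription start site, per their names, each with a transcript, a symbol and the authors' score over input, of a scale and tool not given in the sources used here. The score was used only within a list, and read depth is unknown.

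Transcripts were matched to the RefSeq gene table of GRCm38.p6 by accession, then symbol, then synonym. For receptors 967 of 990 H3K27me3 lines matched by accession, 18 by name and 5 by neither. That table gave names, the coding class, model lengths, MOR family names, gene order and clusters. Olfr100, on another scaffold, is in no cluster. A coding receptor, Olfr715b, is listed as Gm10081. The background was the 21031 coding genes with a curated transcript. A gene takes its widest region and its highest score. Positions count from 1.

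No p-value was computed, since each antibody has 1 library. The functions for intervals, clusters and groups were tested on simulated data. The members, gene lists and comparisons were chosen with earlier results of these data known, and the classes by MOR name, width classes and neighbours after their values were seen. Genes were named by rule: every receptor with Pol II or H3K27ac, the 10 highest H3K4me3 scores, the 10 widest and 10 highest H3K27me3 regions, the ends of the larger region groups and all genes of the lists. Scripts ran in Python 3.11.15 with pandas 2.3.3 and numpy 2.4.6; scipy 1.17.1 gave intervals and matplotlib 3.10.9 the plots.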

Additional observations from a re-analysis of the deposited data

How the results depend on the processing

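The count of receptor genes depended mainly on the lowest scores. Keeping only the top 50% of scores in a list, 294 receptors kept H3K27me3, 1 kept H3K4me3, 1 kept both and 1 kept Pol II. With a score of at least 3 the counts were 381 for H3K27me3, 4 for H3K4me3 and 1 for Pol II. With each list cut to the 7799 regions of the shortest, 785 receptors had H3K27me3, 1 had H3K4me3 and 2 had Pol II. Leaving out chromosome 17 left 1 receptor with Pol II, and leaving out chromosome 7 left 633 of 870 with H3K27me3 (72.8%). Counting every listed symbol, a setting chosen after seeing the data, gave 1 with H3K27ac. The median width of 8.80 kb (order-statistic 95% interval 8.10 to 9.50 kb) became 12.3 kb with each gene counted once and 26.4 kb in the upper 50% by score, where narrow regions drop out. The other 21 alternatives kept the count within 1.5 times or the width within its interval. No paired analysis was possible because each antibody has 1 library, and no replicate could be left out.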

Other observations

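Other chemosensory receptor families were counted in the same way, beside 75.4% of olfactory receptor genes (72.7 to 77.9%) and 42.5% of all coding genes with H3K27me3. H3K27me3 was listed at all 15 trace amine-associated receptor (Taar) genes and at 30 of 35 Tas2r bitter taste receptor genes (85.7%, 69.7 to 95.2%). It was also listed at all 6 genes named Fpr-rs (formyl peptide receptor, related sequence), and other formyl peptide receptor genes were not counted. For the vomeronasal families it was listed at 132 of 230 Vmn1r genes (57.4%, 50.7 to 63.9%) and 70 of 123 Vmn2r genes (56.9%, 47.7 to 65.8%). The intervals of both vomeronasal families lie below that of the olfactory receptors. H3K4me3 was listed at 92 of 1108 olfactory receptor genes (8.30%), against 52 of 230 Vmn1r and 35 of 123 Vmn2r genes. It was listed at 0 of 15 Taar, 4 of 35 Tas2r and 3 of 6 Fpr-rs genes, and at 68.4% of all coding genes. The median H3K27me3 score by gene was 2.90 for the olfactory receptors, against 2.83 for Taar, 2.57 for Tas2r, 2.91 for Vmn1r and 2.67 for Vmn2r genes. Pol II was listed at 0 Vmn1r genes and at 1 Vmn2r gene. Of the 3 Tas1r genes, 1 had H3K27me3 and 2 had H3K4me3.

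The symbol Mir684-1 is listed with receptors on different chromosomes, in the region of Olfr338 on chromosome 2 (42 kb) and in that of Olfr800 and Olfr801 on chromosome 10 (11.4 kb).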
